A study of Mus musculus with 9 samples.

Results

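This report follows 10 genes of antigen processing and of the major histocompatibility complex (MHC) in laser-captured mouse prostate lesions: B2m, Tap1, Tap2, Psmb8 and Psmb9 of the class I pathway, Cd74, H2-Aa, H2-Ab1 and H2-Eb1 of the class II pathway, and the nonclassical class I gene H2-M9. They were chosen by name, as listed genes of both pathways, with earlier results of these data known. Each was read from the probe set that carries its symbol and no other. Of the 10 genes, 9 had such a probe set, 1 probe set each, among 22180 genes measured that way. The Cd74 symbol stands only on 1 probe set that also lists other genes, so no value is given for it. All 9 measured genes were among the 16635 genes bright enough to be tested.

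The study captured 9 samples from 6 male mice of 12 months, 3 per group, 1 microarray each, to compare lesions with and without an Erg fusion allele. The 3 T-3Mb-Erg tumour samples are solid lesions of mice with PbCre and T-3Mb-Erg/+, described as poorly differentiated adenocarcinoma. The 3 T-3Mb-Erg HG-PIN samples are epithelium of high-grade prostatic intraepithelial neoplasia, a precursor lesion, from the same 3 mice. The 3 control HG-PIN samples are the same type of lesion from other mice, with PbCre and without the T-3Mb-Erg allele. All groups therefore share Cre recombinase driven by the probasin promoter, which is active in prostate epithelium. The control lesions are not normal prostate. T-3Mb-Erg models haploinsufficiency for the genes lying between Tmprss2 and Erg. The strain is labelled as mixed, and the sources used here do not give the H2 haplotypes of the mice. Animals were not pooled.

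As background, MHC class I molecules show peptides from inside the cell to CD8 T cells. The immunoproteasome subunits encoded by Psmb8 and Psmb9 help cut the peptides, the Tap1/Tap2 transporter carries them into the endoplasmic reticulum, and B2m, the light chain of class I molecules, is needed for a stable complex at the surface. Class II molecules, such as the H2-Aa/H2-Ab1 dimer, show peptides from outside the cell to CD4 T cells and are found mostly on dendritic cells, macrophages and B cells, although epithelial cells can make them after exposure to interferon gamma. Cd74, the invariant chain, guides class II molecules during assembly. H2-M9 is a class I heavy chain gene of the M region of the mouse MHC, and its role is not described here.

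Regions upstream of several of the genes are shown because class II and B2m promoters are known for a CCAAT box close to an element that resembles a cyclic AMP response element, and because Tap1 and Psmb9 lie head to head. RefSeq windows of assembly GRCm38.p6, from 250 bases before to 50 bases after the start, were matched for 7 of the 10 genes, without Tap2, H2-Ab1 and Cd74. Searched on both strands were CCAAT, the core TGACG, and GAAANNGAAA, the core of an interferon-stimulated response element. Below, bases in capitals mark the matches, each sequence runs 5′ to 3′ on the strand of its gene, and ATTGG is CCAAT on the other strand. The stretches cover the 150 bases before the start, except for Tap1, whose whole window is shown. The stretch of B2m lies at chr2:122147537-122147686 (plus strand), Tap1 at chr17:34187306-34187605 (plus), H2-Aa at chr17:34287824-34287973 (minus), H2-Eb1 at chr17:34305717-34305866 (plus) and H2-M9 at chr17:36642664-36642813 (minus).
B2m: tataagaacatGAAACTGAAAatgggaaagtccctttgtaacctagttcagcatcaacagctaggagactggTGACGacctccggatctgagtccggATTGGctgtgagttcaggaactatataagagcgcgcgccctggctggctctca
Tap1: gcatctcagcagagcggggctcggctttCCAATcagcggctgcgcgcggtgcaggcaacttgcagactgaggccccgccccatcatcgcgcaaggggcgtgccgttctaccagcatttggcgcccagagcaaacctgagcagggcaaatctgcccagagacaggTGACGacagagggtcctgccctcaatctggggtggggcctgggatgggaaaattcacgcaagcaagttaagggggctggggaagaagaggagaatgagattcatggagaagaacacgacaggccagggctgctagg
H2-Aa: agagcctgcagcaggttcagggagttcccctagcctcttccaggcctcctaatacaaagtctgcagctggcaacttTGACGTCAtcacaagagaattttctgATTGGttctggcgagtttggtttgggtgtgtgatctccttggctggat
H2-Eb1: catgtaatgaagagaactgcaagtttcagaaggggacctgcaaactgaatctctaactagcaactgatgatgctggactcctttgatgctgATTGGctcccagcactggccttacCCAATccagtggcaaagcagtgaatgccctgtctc
H2-M9: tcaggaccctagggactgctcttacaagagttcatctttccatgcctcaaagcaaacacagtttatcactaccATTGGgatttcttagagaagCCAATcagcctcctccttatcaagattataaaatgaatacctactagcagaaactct

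CCAAT was found in 6 of the 7 windows, all but that of Psmb8, against 37.41% of 32851 RefSeq windows of this length. TGACG was found in 4 of the 7 windows (B2m, Tap1, Psmb9 and H2-Aa), against 20.81% of all windows. Counted from the start of the gene, with negative positions before it, a TGACG match in B2m begins at -78 and a CCAAT match at -53. In H2-Aa both strands carry TGACG in overlapping matches at -74 and -71, followed by CCAAT at -48. H2-Eb1 and H2-M9 each had 2 CCAAT matches, on opposite strands, and no TGACG. The interferon core was found in the B2m window alone, at -139, against 3.443% of all windows. B2m has a further TGACG match at 45, outside the stretch shown. The starts of Tap1 and Psmb9 are 226 bases apart on opposite strands, so their windows share 275 bases and the same CCAAT and TGACG matches. The counts of windows above therefore include these matches once for each gene. Both motifs were searched because some of these promoters are known for them, so the counts are not a test. A match is a description of letters and does not show binding.

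**Figure D1:**
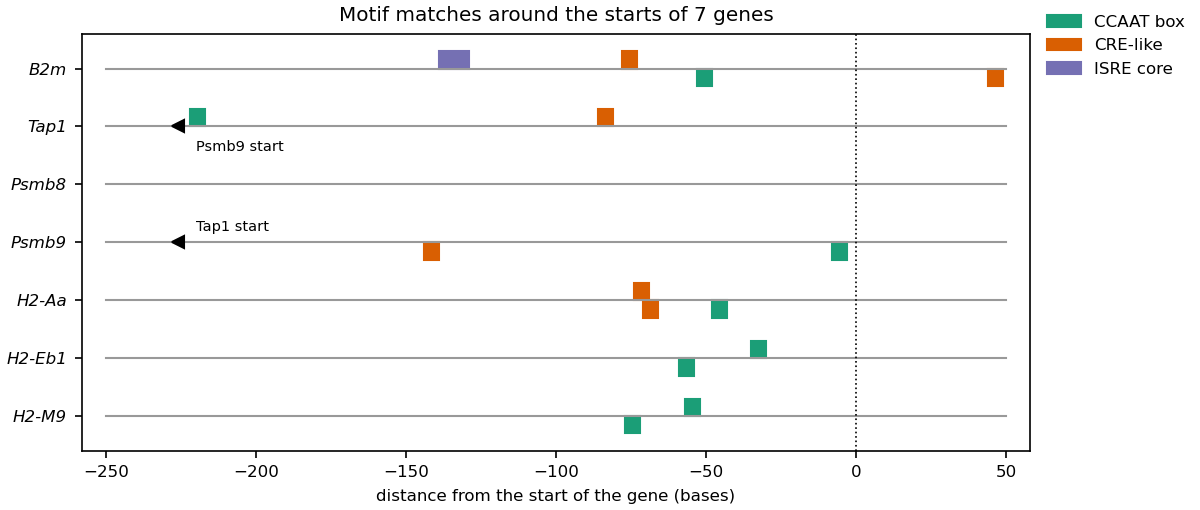
Motif matches by distance from the gene start, in bases, for the 7 genes with a RefSeq window; boxes above a line are on the strand of the gene and boxes below it on the other strand, and triangles mark the start of the neighbouring gene. Tap1 and Psmb9 show the same 2 matches from opposite ends, and Psmb8 shows none.

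The values are probe set intensities, given here on the log2 scale, where a difference of 1 is a doubling. The 95th percentile of the mean level of 1394 olfactory and vomeronasal receptor genes, which prostate is not known to use widely, was 4.80 and served as a gauge of background, passed by 27.9% of the genes tested. Array medians were between 13.6 and 15.4 on the linear scale, and the 95th percentile of log2 intensity was between 6.15 and 6.65. A difference was called where limma, a linear model fitted over all genes tested, gave a Benjamini-Hochberg adjusted p under 0.05. By that rule 0 of the 9 genes were called in T-3Mb-Erg tumours against T-3Mb-Erg HG-PIN, where 0.283% of all genes tested were called (47 genes, or 26 with the mouse as a fixed block). None was called in T-3Mb-Erg HG-PIN against control HG-PIN, where the share of all genes called was 0%, nor in T-3Mb-Erg tumours against control HG-PIN, where it was 0.18%. At an unadjusted p under 0.05 the counts were 3, 2 and 2 of the 9 genes in these 3 comparisons, against 7.65%, 4.1% and 9.32% of all genes. With 3 arrays per group, the 95% interval of a log2 change reached a median of 0.59 to either side over all genes, so a missed threshold does not show that levels were alike. The comparisons share arrays with each other and are not independent.

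B2m carried the widest difference of the class I genes. It measured 9.70, 9.73 and 11.70 in the 3 T-3Mb-Erg tumours, against 12.27, 12.23 and 11.26 in T-3Mb-Erg HG-PIN of the same mice and 12.23, 11.80 and 12.48 in control HG-PIN. Tumours 1 and 2 lay below all HG-PIN samples, whereas tumour 3 lay above the HG-PIN of its own mouse and below all controls. The means were 10.38 ± 1.15 in tumours, 11.92 ± 0.57 in T-3Mb-Erg HG-PIN, against 12.17 ± 0.34 in control HG-PIN (SD, n = 3 each). The level was 2.91-fold lower in tumours than in T-3Mb-Erg HG-PIN (log2 change -1.54, 95% interval -2.90 to -0.19, limma adjusted p = 0.538). Against control HG-PIN it was 3.47-fold lower (log2 change -1.79, interval -3.14 to -0.45, limma adjusted p = 0.330). Between T-3Mb-Erg HG-PIN and control HG-PIN the log2 change was -0.25, with an interval of -1.59 to 1.09. When arrays were weighted by how closely they followed their group means over all genes, the tumour against control HG-PIN change of B2m was -2.24 with a limma adjusted p of 0.0194, and the number of all genes called in that comparison was 938 in place of 30. The weights were 2.84 for tumour 1, 0.38 for tumour 2 and 0.67 for tumour 3.

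Psmb9, an inducible proteasome subunit, separated tumours from both precursor groups without overlap. It measured 4.93, 5.21 and 5.17 in tumours, 5.83, 5.69 and 5.83 in T-3Mb-Erg HG-PIN, against 5.84, 5.32 and 5.62 in control HG-PIN. In each of the 3 mice the tumour was lower than the HG-PIN, by differences of -0.90, -0.48 and -0.65. The fitted log2 change was -0.68 against T-3Mb-Erg HG-PIN (interval -1.25 to -0.11, limma adjusted p = 0.514) and -0.49 against control HG-PIN (interval -1.06 to 0.08, adjusted p = 0.623). Of all genes tested, 11.4% also had groups without overlap in the first of these comparisons and 13.7% in the second. T-3Mb-Erg HG-PIN and control HG-PIN overlapped, with a log2 change of 0.19.

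Tap1, the partner of Psmb9 across the shared promoter, overlapped between all groups. It measured 5.04, 5.59 and 5.23 in tumours, 5.13, 5.44 and 5.88 in T-3Mb-Erg HG-PIN, against 5.51, 5.29 and 5.12 in control HG-PIN. Its log2 changes were -0.20 for tumours against T-3Mb-Erg HG-PIN, 0.17 for T-3Mb-Erg HG-PIN against control HG-PIN and -0.03 for tumours against control HG-PIN, with an interval of -0.65 to 0.60 for tumours against control HG-PIN. The log2 difference of Psmb9 minus Tap1 was -0.11, -0.38 and -0.05 in tumours, 0.70, 0.25 and -0.05 in T-3Mb-Erg HG-PIN, against 0.33, 0.03 and 0.50 in control HG-PIN. All tumour values were below those of the precursor lesions, although tumour 3 and T-3Mb-Erg HG-PIN 3 differed only in the third decimal. The means differed by -0.48 for tumours minus T-3Mb-Erg HG-PIN and by -0.47 for tumours minus control HG-PIN. Each had a two-sided exact permutation p of 0.1 (0.15 adjusted over the 3 comparisons). That is the smallest that 3 against 3 allows, so a p under 0.05 was out of reach. The permutation did not pair samples by mouse, although T-3Mb-Erg tumours and T-3Mb-Erg HG-PIN came from the same 3 mice. T-3Mb-Erg HG-PIN and control HG-PIN differed by 0.01, with an exact permutation p of 1.

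Psmb8, the other listed immunoproteasome subunit, and Tap2, the second chain of the transporter, gave small differences. Psmb8 measured 5.01, 4.81 and 4.83 in tumours, 5.11, 4.89 and 5.53 in T-3Mb-Erg HG-PIN, against 5.07, 4.51 and 5.21 in control HG-PIN. Its groups overlapped in every comparison, although the tumour was lower than the HG-PIN in all 3 mice, by differences of -0.11, -0.07 and -0.70. The fitted log2 changes were -0.29 for tumours against T-3Mb-Erg HG-PIN, 0.25 for T-3Mb-Erg HG-PIN against control HG-PIN and -0.04 for tumours against control HG-PIN. Tap2 measured 3.50, 3.72 and 3.55 in tumours, 3.99, 3.37 and 3.81 in T-3Mb-Erg HG-PIN, against 3.88, 4.31 and 3.96 in control HG-PIN. All 9 Tap2 values lay below the background gauge, so the lower tumour values against control HG-PIN (log2 change -0.46, limma adjusted p = 0.563), which did not overlap, are differences between dim signals.

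In all, the 5 class I genes had lower tumour means in both comparisons with HG-PIN, with a median log2 change of -0.29 against T-3Mb-Erg HG-PIN and -0.46 against control HG-PIN, where the median over all genes tested was -0.01 and -0.03. For Tap1 and Psmb8 the changes against control HG-PIN were only -0.03 and -0.04, and their direction turned in some alternatives. T-3Mb-Erg HG-PIN was higher than control HG-PIN for 3 of the 5 genes, with a median change of 0.17 against -0.00 over all genes.

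**Figure D2:**
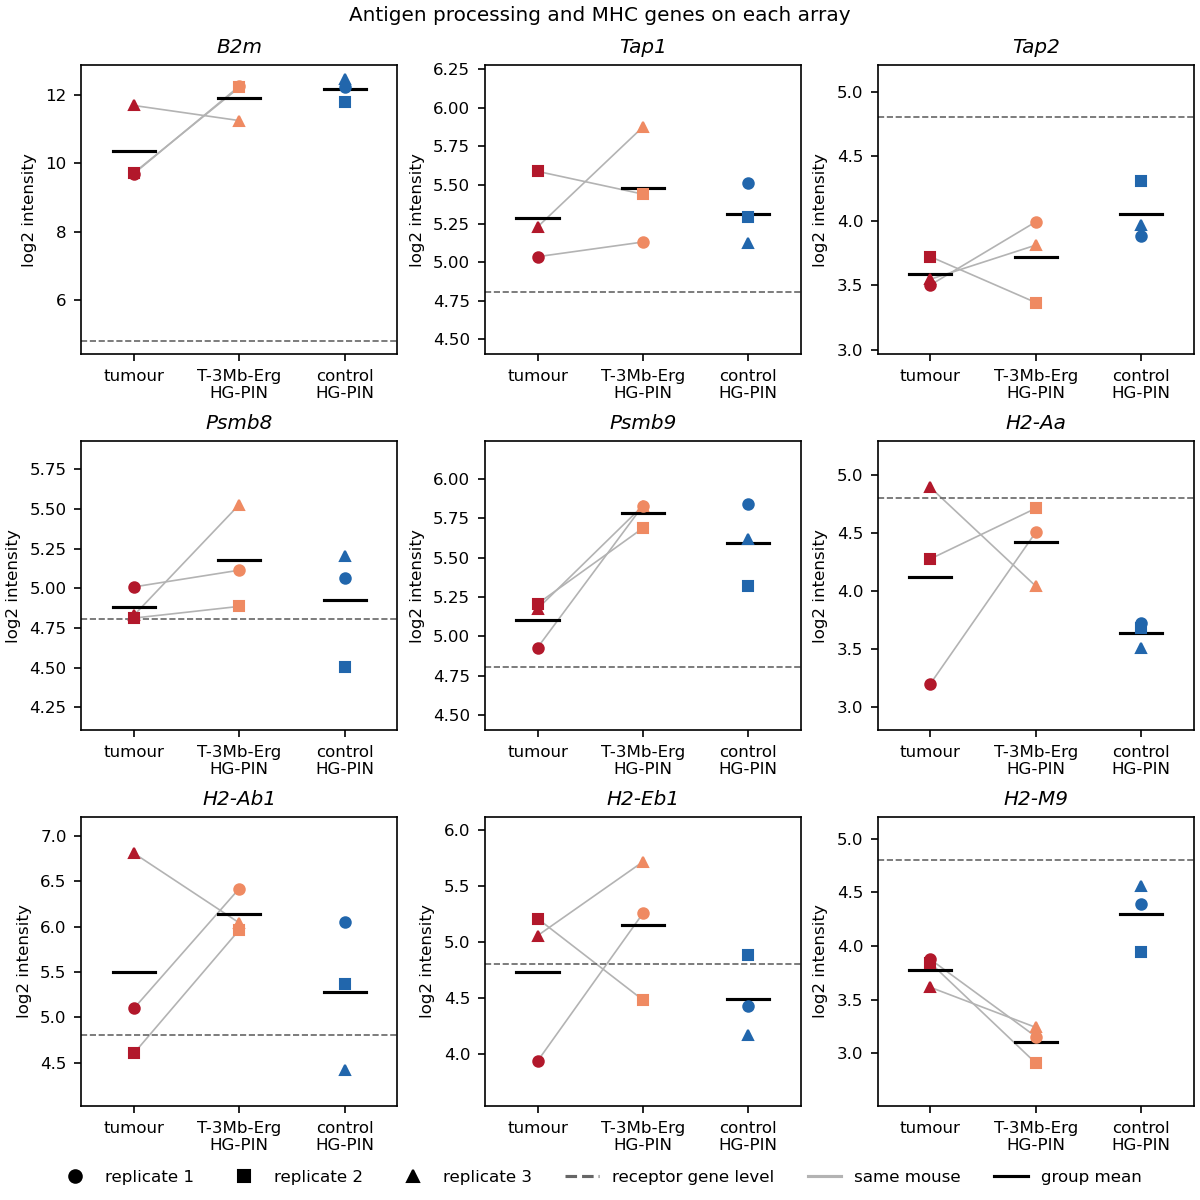
Log2 intensity of the 9 measured genes on each array, T-3Mb-Erg tumours left, then T-3Mb-Erg HG-PIN and control HG-PIN; symbols are replicates, grey lines join samples of 1 mouse, black bars are group means (n = 3) and the dashed line is the background gauge at 4.80. Psmb9 is lower in the tumour in all 3 mice, B2m in 2 of 3, and H2-M9 is higher in the tumour in all 3, below the gauge.

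The class II genes had their highest means in T-3Mb-Erg HG-PIN and varied most among tumours. H2-Ab1, the beta chain of the I-A molecule, measured 5.10, 4.60 and 6.81 in tumours, 6.42, 5.97 and 6.04 in T-3Mb-Erg HG-PIN, against 6.05, 5.37 and 4.42 in control HG-PIN. Tumour 3 was the highest of all 9 samples and tumour 2 the second lowest. The log2 change was -0.64 for tumours against T-3Mb-Erg HG-PIN (interval -1.84 to 0.56), 0.86 for T-3Mb-Erg HG-PIN against control HG-PIN (-0.33 to 2.06) and 0.22 for tumours against control HG-PIN (-0.97 to 1.42). Leaving out tumour 3 turned the last of these to -0.44, and leaving out control HG-PIN 3 to -0.21.

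H2-Aa, the alpha chain of I-A, measured 3.20, 4.28 and 4.89 in tumours, 4.51, 4.71 and 4.04 in T-3Mb-Erg HG-PIN, against 3.72, 3.68 and 3.51 in control HG-PIN. Its T-3Mb-Erg HG-PIN values all lay above its control HG-PIN values, as was the case in either direction for 10.1% of all genes. The log2 change was 0.78 (interval 0.00 to 1.56, limma adjusted p = 0.998), and 8 of the 9 values were below the background gauge. Tumours gave log2 changes of -0.30 against T-3Mb-Erg HG-PIN and 0.49 against control HG-PIN, with overlap in both. H2-Eb1, the beta chain of the I-E molecule, measured 3.94, 5.21 and 5.06 in tumours, 5.26, 4.49 and 5.72 in T-3Mb-Erg HG-PIN, against 4.43, 4.89 and 4.17 in control HG-PIN. The average of all 9 H2-Eb1 values lay just under the background gauge, and 4 of the single values, between 3.94 and 4.49, lay further below it. All groups overlapped, with log2 changes of -0.42 for tumours against T-3Mb-Erg HG-PIN, 0.66 for T-3Mb-Erg HG-PIN against control HG-PIN and 0.24 for tumours against control HG-PIN.

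All 3 measured class II genes were therefore higher in T-3Mb-Erg HG-PIN than in control HG-PIN by mean, with a median change of 0.78, and none passed the test. Their SD among tumours was 0.86 for H2-Aa, 1.16 for H2-Ab1 and 0.70 for H2-Eb1, against 0.34, 0.24 and 0.62 in T-3Mb-Erg HG-PIN. In control HG-PIN it was 0.11, 0.82 and 0.36 in the same order. Within mice the tumour minus HG-PIN difference had no common sign for any of them. For H2-Ab1 it was -1.32, -1.36 and 0.77.

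H2-M9 followed neither pathway. It measured 3.88, 3.84 and 3.61 in tumours, 3.16, 2.91 and 3.24 in T-3Mb-Erg HG-PIN, against 4.39, 3.95 and 4.56 in control HG-PIN. The 3 groups did not overlap with each other, in the order T-3Mb-Erg HG-PIN lowest, tumours between and control HG-PIN highest, yet all 9 values lay below the background gauge. The T-3Mb-Erg HG-PIN values also lay under 3.25, the mean log2 below which genes were removed as dim. H2-M9 passed that filter, with a 9-array mean of 3.73, only through its higher values in tumours and control HG-PIN. Its p values against T-3Mb-Erg HG-PIN are therefore given as a description. In T-3Mb-Erg HG-PIN it was lower than in control HG-PIN by a log2 change of -1.20 (interval -1.66 to -0.73, unadjusted p = 0.000129, limma adjusted p = 0.269). In tumours it was higher than in T-3Mb-Erg HG-PIN by 0.68 (interval 0.21 to 1.15, limma adjusted p = 0.362), in each of the 3 mice, and lower than in control HG-PIN by a log2 change of -0.52 (adjusted p = 0.461). The T-3Mb-Erg HG-PIN arrays enter both of the first comparisons. With array weights, H2-M9 passed the threshold in T-3Mb-Erg HG-PIN against control HG-PIN (log2 change -1.36, limma adjusted p = 0.0183), where 9 of all genes tested were then called. Counting all 9 measured genes, groups did not overlap for 2 in tumours against T-3Mb-Erg HG-PIN (Psmb9 and H2-M9), for 2 in T-3Mb-Erg HG-PIN against control HG-PIN (H2-Aa and H2-M9) and for 4 in tumours against control HG-PIN (B2m, Tap2, Psmb9 and H2-M9, all lower), beside the shares of all genes given above, 11.4%, 10.1% and 13.7%.

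**Figure D3:**
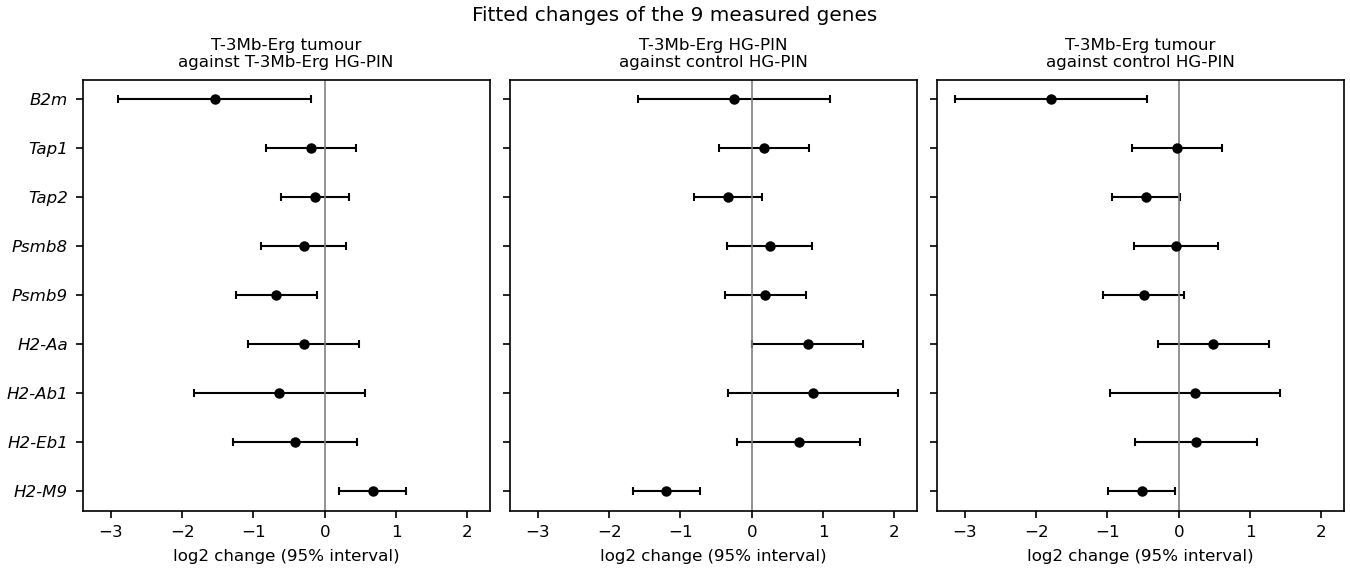
Fitted log2 changes of the 9 measured genes with 95% intervals in the 3 comparisons, from limma over all 9 arrays; points left of 0 are lower in the group named first. B2m has the lowest point estimates of tumours against either HG-PIN group, and H2-M9 lies on opposite sides of 0 in the first and second panels.

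Other genes of the pathways were taken from lists and read in the same fit. For tumours against T-3Mb-Erg HG-PIN, 0 of the 8 tested class I heavy chain genes of the K, Q and T regions were called, with 6 lower and 2 higher means. The smallest p values belonged to H2-T23, which encodes the Qa-1 heavy chain, at 3.59 ± 0.92 in tumours, 5.54 ± 0.39 in T-3Mb-Erg HG-PIN, against 5.11 ± 0.94 in control HG-PIN (SD, n = 3 each), and to the classical heavy chain H2-K1 at 5.61 ± 0.59, 7.14 ± 0.42 and 6.19 ± 0.45 in the same order. Their log2 changes were -1.94 and -1.53, with limma adjusted p of 0.213 and 0.220. The tumour mean of H2-T23 lay below the background gauge, so the size of its change is measured against a dim signal. H2-Q10 went the other way, with means of 8.62 in tumours, 7.42 in T-3Mb-Erg HG-PIN, against 6.36 in control HG-PIN (tumours against control HG-PIN 2.26, limma adjusted p = 0.157). Heavy chain genes are close in sequence, so a probe set may read more than its own gene. Among 11 other M region genes with a probe set, 3 were bright enough to be tested, none had a mean above the gauge and none was called.

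The peptide loading genes gave 0 calls of 7 tested, with Tapbp, which tethers empty class I molecules to the transporter, at 5.64 in tumours, 6.09 in T-3Mb-Erg HG-PIN, against 5.99 in control HG-PIN. The other inducible proteasome genes gave 0 of 3 and the constitutive proteasome 0 of 13, with median changes of -0.29 and -0.06 for tumours against T-3Mb-Erg HG-PIN. In T-3Mb-Erg HG-PIN against control HG-PIN, 12 of the 13 constitutive subunits had a higher mean, with a median change of 0.38 and 0 called. Of all genes tested, 50.5% had a lower mean there. Relative to the 9-array average, the 14 measured subunits stood at 0.44, 0.07 and -0.10 in T-3Mb-Erg HG-PIN. In control HG-PIN they stood at 0.16, -0.62 and -0.06, so the groups overlapped and control HG-PIN 2 was the lowest. The class II loading genes gave 0 calls of 8 tested, and the CD1 and MR1 presentation genes 0 of 3. Costimulation and checkpoint ligands gave 0 of 8. None of these lists had a call in the other comparisons either. At an unadjusted p under 0.05 in limma, 2 of the 8 heavy chain genes were lower and, of the ligands, 1 was lower and 1 higher in tumours than in T-3Mb-Erg HG-PIN, with 0 in the other lists of the last 2 paragraphs.

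Regulators of MHC genes gave 0 calls of 11 tested in each comparison. In T-3Mb-Erg HG-PIN against control HG-PIN 2 regulators had higher and 9 lower means, with a median change of -0.13. For tumours against T-3Mb-Erg HG-PIN 6 were higher and 5 lower, with a median change of 0.02. Ciita, the class II transactivator, had means of 4.77 in tumours, 4.56 in T-3Mb-Erg HG-PIN, against 5.05 in control HG-PIN, with a 9-array average just under the background gauge. Nfyc, a subunit of the complex that binds CCAAT boxes, had the smallest p for tumours against control HG-PIN, with means of 3.18 in tumours and 3.86 in control HG-PIN (log2 change -0.69, limma adjusted p = 0.298). All 3 of its group means lay below the background gauge. Of 19 tested interferon gamma signalling genes, which include Irf1 of the regulator list, 16 had lower means in tumours than in T-3Mb-Erg HG-PIN and 0 were called (3 lower at an unadjusted p under 0.05), with a median change of -0.24. Irgm1 and Cxcl11, both induced by interferon, had the smallest p values there, with log2 changes of -0.83 and -0.99 and limma adjusted p of 0.530 and 0.538. Their 9-array averages, 4.18 and 4.47, lay below the background gauge. Of the 21 measured genes of this list, 6 had means above the gauge. Of the same 19 genes 16 had higher means in T-3Mb-Erg HG-PIN than in control HG-PIN, with a median change of 0.26. Both counts rest on the same T-3Mb-Erg HG-PIN arrays.

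Markers of cell types differed between the groups. In bulk captures, fewer cells of a type and less RNA per cell cannot be told apart. The labelled epithelium was checked with 15 measured prostate epithelial markers, of which 13 had means above the background gauge. Their summed intensity was between 438 and 565 in tumours, 1911 and 2512 in T-3Mb-Erg HG-PIN, against 759 and 1774 in control HG-PIN. Of these markers 8 were called lower in tumours than in T-3Mb-Erg HG-PIN and 0 higher, led by Cldn4, a tight junction claudin, at 3.25, against 7.01 in T-3Mb-Erg HG-PIN (log2 change -3.76, limma adjusted p = 0.00436). Its tumour mean lay below the background gauge, so the size of that change is measured against a dim signal. Without tumour 1, 0 of all genes tested were called in this comparison, without T-3Mb-Erg HG-PIN 1 the count was 5 and without T-3Mb-Erg HG-PIN 2 it was 8, so all 8 calls end without tumour 1. The summed intensity of the 5 class I genes, most of it B2m, was between 941 and 3447 in tumours, 2627 and 5082 in T-3Mb-Erg HG-PIN, against 3692 and 5863 in control HG-PIN. The part of epithelial content in the class I values was not tested.

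Fibroblast markers were higher by mean in tumours than in T-3Mb-Erg HG-PIN for 8 of 8 tested, with a median change of 1.61, and 0 were called. Their summed intensity was between 473 and 3349 in tumours, 247 and 644 in T-3Mb-Erg HG-PIN, against 178 and 222 in control HG-PIN. Tumour 3, with the highest B2m, H2-Aa and H2-Ab1 of the tumours, also had the highest mean fibroblast level of all 9 samples, 2.02 above the average. It was the highest of the tumours for epithelial (-0.98), endothelial (0.70), smooth muscle (0.57), macrophage (0.39) and pan-leucocyte (0.20) markers. Its array also had the highest 95th percentile of log2 intensity of all 9, 6.65, and the part of that in these levels was not tested. For T and NK cell markers tumour 3 was the lowest of all 9 samples (-0.28). Its dendritic cell (0.004) and B and plasma cell (-0.21) levels lay between those of the other tumours. Without tumour 3 the change of B2m against T-3Mb-Erg HG-PIN was -2.30, and with it -1.54. In T-3Mb-Erg HG-PIN 1, the smooth muscle markers stood 1.55 above the average, the highest of all samples.

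Markers of the cells that usually make class II molecules were dim for the most part. Of 10 measured dendritic cell markers 2 had means above the gauge, of 19 macrophage markers 7, and of 9 B and plasma cell markers 2. Ptprc, the gene of the pan-leucocyte antigen CD45, averaged 2.93 over the 9 arrays and was too dim to be tested. The summed intensity of the macrophage markers was between 498 and 902 in tumours, 546 and 790 in T-3Mb-Erg HG-PIN, against 474 and 568 in control HG-PIN. The mean macrophage level relative to the 9-array average was between -0.17 and 0.39 in tumours, 0.02 and 0.27 in T-3Mb-Erg HG-PIN, against -0.22 and -0.06 in control HG-PIN, so that T-3Mb-Erg HG-PIN lay above control HG-PIN. The same was true of the mean fibroblast level (-0.52 to 0.13 in T-3Mb-Erg HG-PIN, against -0.90 to -0.69 in control HG-PIN) and the mean epithelial level (0.79 to 1.07 in T-3Mb-Erg HG-PIN, against -0.42 to 0.69 in control HG-PIN). Smooth muscle markers had higher means in T-3Mb-Erg HG-PIN than in control HG-PIN for 10 of 10 tested, with a median change of 0.82 and 0 called (2 higher at an unadjusted p under 0.05 in limma). The mean dendritic cell level was between -0.08 and 0.31 in tumours, -0.27 and -0.02 in T-3Mb-Erg HG-PIN, against -0.13 and 0.30 in control HG-PIN. Called for tumours against T-3Mb-Erg HG-PIN were Cd14, a co-receptor for bacterial products (log2 change -1.73, limma adjusted p = 0.0409), the B cell adaptor Blnk (-1.50, limma adjusted p = 0.0306) and Arhgdib (1.39, limma adjusted p = 0.0180). The lower group of each lay below the background gauge (tumours for Cd14, 3.49, and Blnk, 3.57, and T-3Mb-Erg HG-PIN for Arhgdib, 3.68), and these calls too were lost without tumour 1. In that comparison 7 of the tested macrophage markers had higher means in tumours and 10 had lower means. Of the tested pan-leucocyte markers, which include Arhgdib, 3 were higher and 6 lower. Of the tested B and plasma cell markers 0 were higher and 6 lower. No T and NK cell marker of 11 tested was called. The part of any of these cell types in the class II values was not tested.

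**Figure D4:**
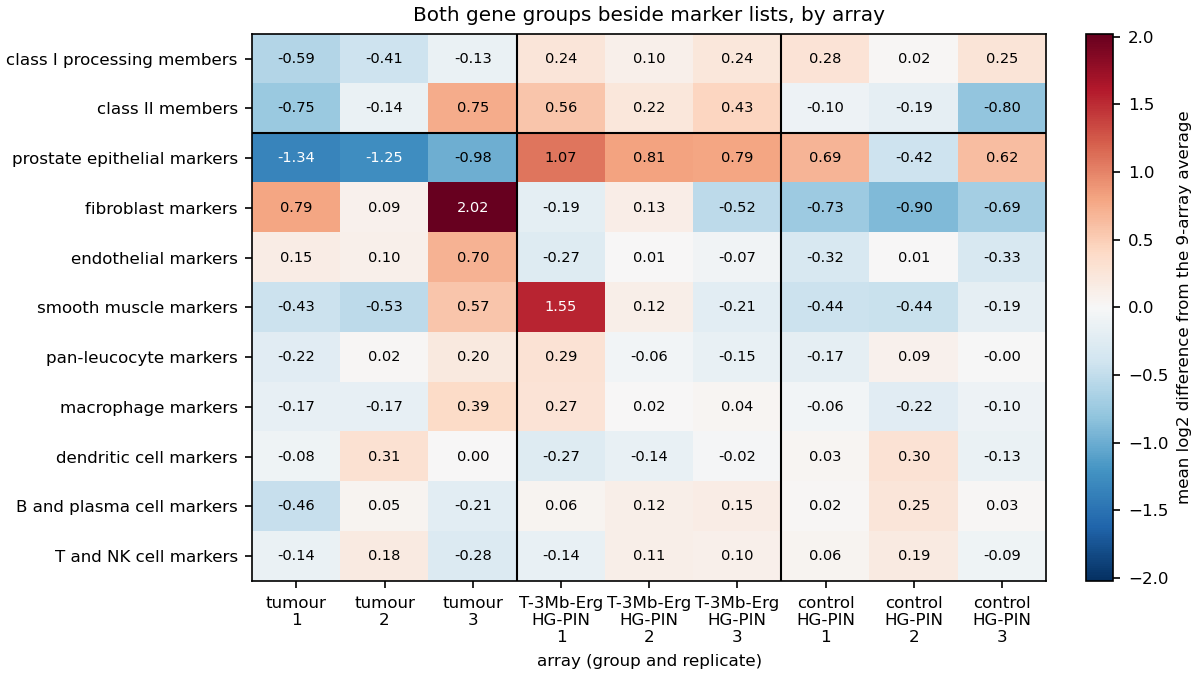
Mean log2 difference of each gene group from its own 9-array average, for the class I and class II genes (upper rows) and for marker lists, by array; red is above and blue below the average. Class I values are below 0 in all 3 tumours, as are the epithelial markers, and class II values are between -0.75 and 0.75 in tumours.

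Taken as a mean of centred log2 values, the class I genes stood at -0.59, -0.41 and -0.13 in tumours, 0.24, 0.10 and 0.24 in T-3Mb-Erg HG-PIN, against 0.28, 0.02 and 0.25 in control HG-PIN. Without B2m the same mean was -0.29, -0.08 and -0.21 in tumours, 0.11, -0.06 and 0.35 in T-3Mb-Erg HG-PIN, against 0.17, -0.05 and 0.07 in control HG-PIN. All tumours were still below all HG-PIN samples, but the gap was narrow. Tumour 2 (-0.077) lay close to T-3Mb-Erg HG-PIN 2 (-0.064) and control HG-PIN 2 (-0.052). Tap2, which this mean includes, was below the background gauge on every array. The class II mean was -0.75, -0.14 and 0.75 in tumours, 0.56, 0.22 and 0.43 in T-3Mb-Erg HG-PIN, against -0.10, -0.19 and -0.80 in control HG-PIN. T-3Mb-Erg HG-PIN lay above control HG-PIN, and tumours were spread from below all T-3Mb-Erg HG-PIN values to above them.

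The genes varied together only in part. As descriptions over 9 arrays, which share 3 groups and in part the same mice, Pearson's r was 0.72 between B2m and Psmb9 and 0.64 between H2-Aa and H2-Ab1. It was 0.42 between Tap1 and Psmb9 and -0.68 between H2-M9 and H2-Aa. The other tested genes most like the class I mean were Epcam (r = 0.96), Chchd10 (0.95), Sp100 (0.95), Cldn4 (0.95) and Ptpn3 (0.95). Epcam and Cldn4 are on the epithelial marker list. With B2m alone these 5 genes had r between 0.77 and 0.88, and with the mean of the other 4 class I genes between 0.70 and 0.86. Most like the class II mean were Usp5 (r = 0.93), Bgn (0.93), Auts2 (0.90), Igkj1 (0.89) and Ddx42 (0.89). Most like H2-M9 were Snx16 (r = 0.95), Rad9b (0.95), 3300002I08Rik (0.91), Iqcb1 (0.90) and Zfp2 (0.89). The 9-array averages of all 5 of these, between 3.53 and 4.25, lay below the background gauge. So did those of Ptpn3 (4.49) and of the class II set other than Bgn (6.14). Each set of 5 was picked as the highest of all genes tested over 9 points, so high values are part of the choice.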

How the data were processed

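Per the labels' protocols, laser-captured, formalin-fixed tissue was extracted with a kit for fixed samples, amplified with a NuGEN system and hybridised to Affymetrix Mouse Gene 2.0 ST arrays. Deposited by the authors were linear intensity values of 41345 probe sets; their background correction, probe summary and normalization: not given in the sources used here. Array values have no read depth, and 3 arrays per group limit the precision.

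Values were log2-transformed (floor 1, used by 0 values). Symbols came from the platform annotation, updated by Entrez identifier with RefSeq GRCm38.p6. The brightest of the probe sets with exactly 1 symbol was kept, and the dimmest 25% of 22180 genes were removed (mean log2 below 3.25). limma 3.58.1 (R 4.3.3) fitted 3 group means over 9 arrays with a mean-variance trend and the mouse as a random block (consensus correlation -0.01). T-3Mb-Erg tumours and HG-PIN pair by the mouse in the labels; same-mouse deviations correlated at 0.17, 0.10 and -0.30. Adjusted p values come from this fit. It was also run on simulated data with independent noise for each gene and array. That run held no array-wide or same-mouse differences, so it cannot show how the adjusted p values behave where arrays differ as a whole. Psmb9 minus Tap1 was tested by exact permutation in scipy 1.17.1, without pairing by mouse.

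The 10 genes and 19 other lists were chosen with earlier results of these data known. Named in the text are all listed members, from other lists up to 4 called genes or the 2 smallest p values of a comparison, the 5 genes most correlated with each profile, and Ptprc, an untested pan-leucocyte marker chosen after its values were seen. A further part of the genotype, shared by all groups, is not reported here.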

Additional observations from a re-analysis of the deposited data

How the results depend on the processing

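Across 22 other settings, 18 of the 27 log2 changes of the 9 measured genes kept their sign in every setting run. In a fit with a fixed replicate block for the mouse, 0 of the 9 genes were called in T-3Mb-Erg tumours against T-3Mb-Erg HG-PIN (B2m limma adjusted p = 0.708, Psmb9 0.827), and 26 in place of 47 of all genes; which of the marker genes remained called there was not counted. With array weights 1 of the 9 genes was called in T-3Mb-Erg HG-PIN against control HG-PIN (H2-M9) and 1 in tumours against control HG-PIN (B2m), and in tumours against control HG-PIN H2-Aa turned to -0.029 and H2-Eb1 to -0.12. Arrays centred on their median gave 0.0092 for Psmb8 and 0.027 for Tap1 in tumours against control HG-PIN, and a term for signal range gave 0.031 for Tap1. The median of the class I genes moved for tumours against control HG-PIN to -0.22 on the log2(value + 16) scale and to -0.27 with the lowest 50% of genes removed, and for tumours against T-3Mb-Erg HG-PIN to -0.49 with that removal, which takes Tap2 and H2-M9 out of the test.

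Leaving out 1 array at a time gave ranges that crossed 0, in tumours against T-3Mb-Erg HG-PIN, for H2-Aa (-0.74 to 0.16) and Tap1 (-0.39 to 0.0065). In T-3Mb-Erg HG-PIN against control HG-PIN it did so for B2m (-0.44 to 0.28) and Tap1 (-0.032 to 0.37), and in tumours against control HG-PIN for H2-Ab1 (-0.44 to 0.69), Psmb8 (-0.25 to 0.10) and Tap1 (-0.17 to 0.13). The class I median for tumours against T-3Mb-Erg HG-PIN ran between -0.45 and -0.11, the highest value without T-3Mb-Erg HG-PIN 3. The number of all genes called ran between 0 (without tumour 1) and 110 (without tumour 2) in tumours against T-3Mb-Erg HG-PIN, 0 and 6 in T-3Mb-Erg HG-PIN against control HG-PIN, and 0 (without control HG-PIN 3) and 261 (without tumour 2) in tumours against control HG-PIN. The cause of these shifts was not tested. The 3 arrays per group, unknown upstream normalization and mean signals below the background gauge for Tap2, H2-Aa, H2-Eb1 and H2-M9 limit all values.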
